A study of Rattus norvegicus with 4 samples.

Results

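The set described here is 5 miRNA hairpins: rno-miR-142, rno-miR-150, rno-miR-223, rno-miR-342 and rno-miR-511, which are known from blood cells and from Kupffer cells, the resident macrophages of the liver. The members are the probes whose spot name was 1 of these names, alone or with an arm (5p or 3p), and they came to 10 of the 761 rat miRNA probes on the array, 1 for each arm of each hairpin. They were measured in hepatocytes, the parenchymal cells of the liver, and in liver sinusoidal endothelial cells (LSECs), the fenestrated lining of its capillaries. Both cell types came from untreated male Sprague-Dawley rats aged 10 weeks, with 2 samples of each and 1 single-colour Toray 3D-Gene array per sample. How the cells were purified, and from how many animals, is not given in the sources used here, so each p-value measures only the spread between these samples, which may be technical.

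MicroRNAs (miRNAs) are cut from a hairpin transcript, and either strand, the 5p or the 3p arm, can be loaded into an Argonaute protein, where bases 2 to 8, the seed, lead the pairing with target messenger RNAs. From mouse and human work, miR-142 is known as a miRNA of nearly all blood cell lineages, miR-150 of mature lymphocytes, and miR-223 of granulocytes and monocytes, while miR-342 is encoded in an intron of the Evl gene and is made by lymphocytes among other cells. Mir511 lies in the gene of the mannose receptor, Mrc1, an endocytic receptor known from macrophages and also from LSECs. A sample of LSECs can hold Kupffer cells and other leukocytes, and in bulk RNA fewer cells of a type and less RNA per cell cannot be told apart.

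The mature arms that RefSeq lists (GRCr8; 8 of the 10 members matched, and the arms of rno-miR-150 are named only) are shown because the arms of a hairpin differed in their values. Capitals mark the seed.
rno-miR-142-5p: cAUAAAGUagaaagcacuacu
rno-miR-142-3p: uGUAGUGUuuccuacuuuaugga
rno-miR-223-5p: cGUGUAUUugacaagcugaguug
rno-miR-223-3p: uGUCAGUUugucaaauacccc
rno-miR-342-5p: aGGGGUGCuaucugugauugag
rno-miR-342-3p: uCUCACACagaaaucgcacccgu
rno-miR-511-5p: cAUGCCUUuugcucugcacuc
rno-miR-511-3p: aAUGUGUAgcaaaagacagga

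No 2 of these 8 arms share a seed. Among the 685 arrayed miRNAs with a RefSeq sequence, 7 of the 8 seeds occurred once, and the seed of rno-miR-511-5p (AUGCCUU) was shared with rno-miR-532-5p. That miRNA is not a member, and its own difference is given with rno-miR-511-5p below. The hairpin of rno-miR-511 is shown because its arms differed most between the cell types among the hairpins with a listed sequence, with both arms in capitals.
Mir511: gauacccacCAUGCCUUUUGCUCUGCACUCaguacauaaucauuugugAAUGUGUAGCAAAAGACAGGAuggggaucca

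In the GRCr8 annotation this hairpin lies at chr17:82187953-82188031 on the plus strand, inside the span of Mrc1 on the same strand. Mir342 lies at chr6:133329655-133329753 inside the span of Evl, also on the same strand. Mir142, at chr10:73055104-73055190, falls inside the span of the protein-coding gene Tspoap1, and Mir223, at chrX:65151383-65151492, falls inside a long non-coding RNA and 2930 bp from Vsig4, which encodes a complement receptor of macrophages.

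Values are medians of the spot's Cy5 brightness in linear intensity units with the background in. Blank spots averaged 79.5 and 92.1 units on hepatocyte arrays 1 and 2 and 70.9 and 71.8 units on LSEC arrays 1 and 2, and a probe counted as detected above the blank mean plus 2 SD. By this limit 563 and 596 of all miRNAs were detected in hepatocytes and 680 and 660 in LSECs. Marker miRNAs followed the labels. All 6 probes of the hepatocyte markers miR-122, miR-192 and miR-194 were called higher in hepatocytes, and both arms of miR-126a, an endothelial miRNA, were called higher in LSECs. Like the 761 miRNAs as a whole, the members were detected more often in LSECs, 10 of 10 on both LSEC arrays against 7 and 9 of 10 on the hepatocyte arrays. The detection limit was also closer to the blank mean in LSECs, where the blanks had an SD of 1.15 and 1.24 units against 1.71 and 2.63.

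All 10 members passed the filter for testing (detection on both hepatocyte arrays, both LSEC arrays, or all 4). Of these, rno-miR-511-5p, rno-miR-511-3p and rno-miR-223-5p passed only through the LSEC arrays. The test was limma on log2 of the normalized intensity plus an offset of 50, with p-values adjusted by Benjamini-Hochberg over all 652 miRNAs tested. At an adjusted p under 0.05, 7 of the 10 were called higher in LSECs, where 18.6% of all tested miRNAs were. With detection required on all 4 arrays, 7 members could be tested and 6 were called higher in LSECs, beside 103 of all 482. None of the 10 was called higher in hepatocytes, where 18.3% of all tested miRNAs were, and at an unadjusted p under 0.05 the count was 7 of 10 members beside 316 of all 652. The median member difference was 0.52 on the log2 scale, beside a median of 0 over all tested miRNAs. Quantile normalization keeps the latter near 0 without fixing it: it was 0.03 with a detection limit of 5 SD and -0.02 with detection on all 4 arrays. The offset compresses the differences of dim probes, so each value understates the change of a dim miRNA. The 7 called members fell into a wide range, from 3.50 for rno-miR-150-5p to 0.22 for rno-miR-342-3p.

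The balance between cell types over all miRNAs moved with the scaling. Quantile normalization called 121 miRNAs on the LSEC side and 119 on the hepatocyte side, scaling to the median gave 221 and 108, scaling to the 75th percentile 137 and 308, no normalization 150 and 27, and scaling by the spike control spots 435 and 21. The authors' deposited values, tested for the 482 miRNAs listed on all 4 arrays, gave 196 and 111. The median of all miRNAs shifted by -0.15 with the 75th percentile, by 0.27 with the spikes and by 0.28 with the authors' values. The members called higher in LSECs numbered 9 with the spikes and 7 under each of the other settings. None was called higher in hepatocytes, except rno-miR-223-5p with the 75th percentile. The 7 were not the same members throughout. With the authors' values only 7 members could be tested, without rno-miR-511-3p, and those called included rno-miR-342-5p (0.67, limma adjusted p = 0.019).

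**Figure D1:**
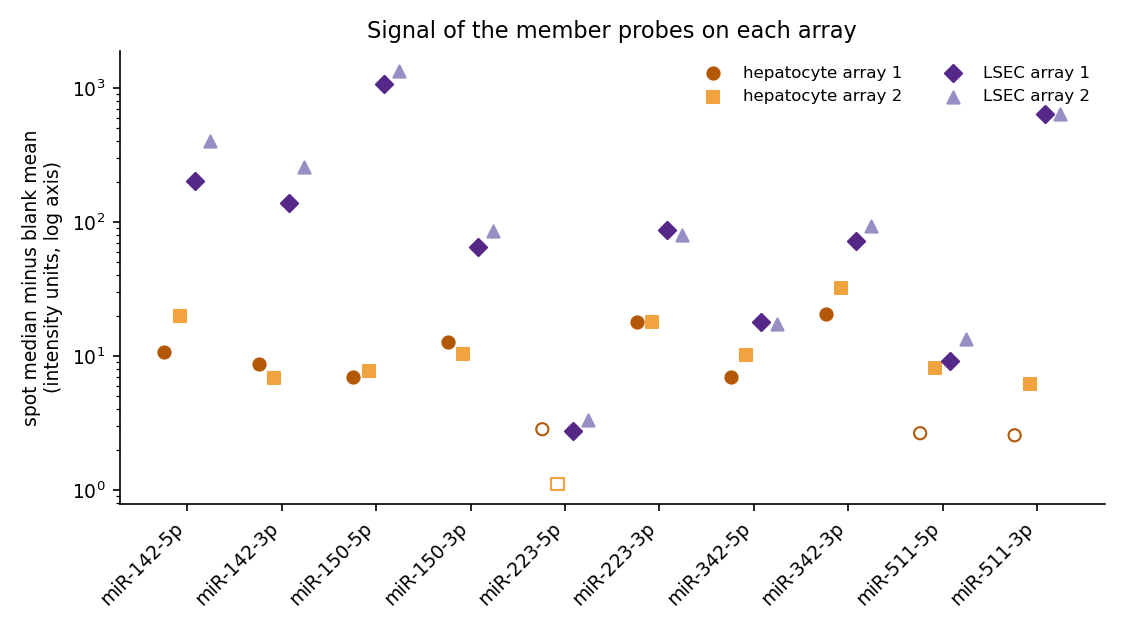
Signal of the 10 member probes on each of the 4 arrays, as spot median minus the mean of the blank spots (intensity units, log axis); open symbols are below the detection limit. The LSEC arrays lie far above the hepatocyte arrays for miR-150-5p and miR-511-3p, and for miR-223-5p the arrays overlap. These signals are not normalized, and the LSEC arrays were brighter as a whole. Groups that do not overlap in such signals, here or in the text, need not differ after normalization. Over miRNAs detected on all 4 arrays, the median was 29.1 and 30.8 units in LSECs against 12.7 and 20.9 in hepatocytes. Without any difference, 2 against 2 arrays separate fully in a share of 0.333 of cases.

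The Mrc1-borne rno-miR-511 gave 1 of the 2 largest differences among the members. Its 3p arm read 82.1 and 98.3 units in hepatocytes, which is 1.5 and 2.36 SD above the blanks, and 707 and 705 units in LSECs. The LSEC arrays were thus nearly equal and far above both hepatocyte arrays, of which only array 2 passed the detection limit. The normalized log2 level was 5.90 ± 0.02 in hepatocytes against 8.68 ± 0.07 in LSECs (mean ± SD, n = 2), a difference of 2.79 ± 0.05 (SE) with a limma adjusted p of 2.82e-05. This placed rno-miR-511-3p at rank 9 of 652 from the LSEC side.

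The 5p arm of the same hairpin, rno-miR-511-5p, read 82.2 and 100.3 units in hepatocytes and 80.2 and 85.1 in LSECs. Above the blanks of each array this came to 2.66 and 8.17 units against 9.25 and 13.3, so the groups did not overlap but lay close together. The difference of 0.11 ± 0.05 on the log2 scale did not pass the limma test (adjusted p = 0.17, interval -0.03 to 0.24), and it turned to -0.09 with scaling to the 75th percentile. The miRNA that shares its seed, rno-miR-532-5p, read 90.8 and 102 units in hepatocytes and 231 and 191 in LSECs, with a called difference of 1.10 ± 0.14 (limma adjusted p = 0.0073).

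The lymphocyte miRNA rno-miR-150 had the largest difference among the members. Its 5p arm read 86.5 and 99.8 units in hepatocytes and 1149 and 1400.3 in LSECs. The LSEC arrays stood 935 and 1071 SD of the blanks above background, and the hepatocyte arrays only 4.08 and 2.92 SD. The difference was 3.50 ± 0.08 on the log2 scale (limma adjusted p = 5.41e-05, interval 3.27 to 3.72), at rank 5 of 652. Before normalization and without the offset, the mean signal above blanks was 164 times as high in LSECs. With the authors' deposited values this ratio was 123. Neither ratio is a reliable fold, because the hepatocyte signals lay so near the blanks that the spread of the blanks limits them. The first also holds the greater brightness of the LSEC arrays as a whole.

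The other arm, rno-miR-150-3p, read 92.2 and 103 units in hepatocytes and 136 and 158 in LSECs. The groups did not overlap, and the difference was 0.58 ± 0.12 (limma adjusted p = 0.029). With the replicate number as a block this call was lost (adjusted p = 0.056), and it was kept in only 1 of the 4 fits that left out an array.

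Both arms of rno-miR-142, the general blood-cell miRNA, were higher in LSECs, with the least even LSEC arrays of the set. The 5p arm read 90.3 and 112 units in hepatocytes and 274 and 474 in LSECs. The 3p arm read 88.2 and 99.0 units in hepatocytes and 209 and 329.9 in LSECs. In both arms each LSEC array was above both hepatocyte arrays, and LSEC array 2 was well above LSEC array 1. The differences were 1.64 ± 0.21 for rno-miR-142-5p (limma adjusted p = 0.0071) and 1.46 ± 0.22 for rno-miR-142-3p (limma adjusted p = 0.012), at ranks 25 and 29 of 652. Their SD between the LSEC arrays was 0.41 in each arm, beside 0.07 for rno-miR-511-3p and 0.11 for rno-miR-150-5p. Each arm's call was lost when either hepatocyte array was left out, with adjusted p between 0.080 and 0.099.

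The myeloid rno-miR-223 was among the weaker members. Its 3p arm, the usual guide strand, read 97.4 and 110.0 units in hepatocytes and 158 and 152 in LSECs. Above the blanks this was 17.9 on each hepatocyte array against 86.6 and 79.9, without overlap. The difference of 0.47 ± 0.11 passed the limma test narrowly (adjusted p = 0.040), and it did so in only 1 of the 4 fits that left out an array and not with cyclic loess (adjusted p = 0.066).

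The 5p arm, rno-miR-223-5p, read 82.4 and 93.2 units in hepatocytes, where neither array passed the detection limit, and 73.7 and 75.1 in LSECs, 2.39 and 2.69 SD above the blanks. The signals above blanks overlapped between the cell types, and no fold is given because the LSEC level was not above the lowest that the hepatocyte arrays could detect (limma adjusted p = 0.83). This is the member closest to the detection limit in LSECs.

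The Evl-borne rno-miR-342 had the smallest called difference. Its 3p arm read 99.98 and 124 units in hepatocytes and 143 and 166 in LSECs. Signal above the blanks was 20.4 and 32.3 against 71.9 and 94.1 units, without overlap, so this arm was well detected in both cell types. The difference of 0.22 ± 0.05 was called (limma adjusted p = 0.043), but not with the replicate number as a block (adjusted p = 0.094), nor with limma's trend and robust options (adjusted p = 0.053), nor in any of the 4 fits that left out an array (adjusted p from 0.099 to 0.22). The 5p arm, rno-miR-342-5p, read 86.5 and 102 units in hepatocytes and 88.8 and 89.0 in LSECs. Its difference of 0.09 ± 0.04 was not called (limma adjusted p = 0.19, interval -0.03 to 0.21) and turned to -0.08 with scaling to the 75th percentile.

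**Figure D2:**
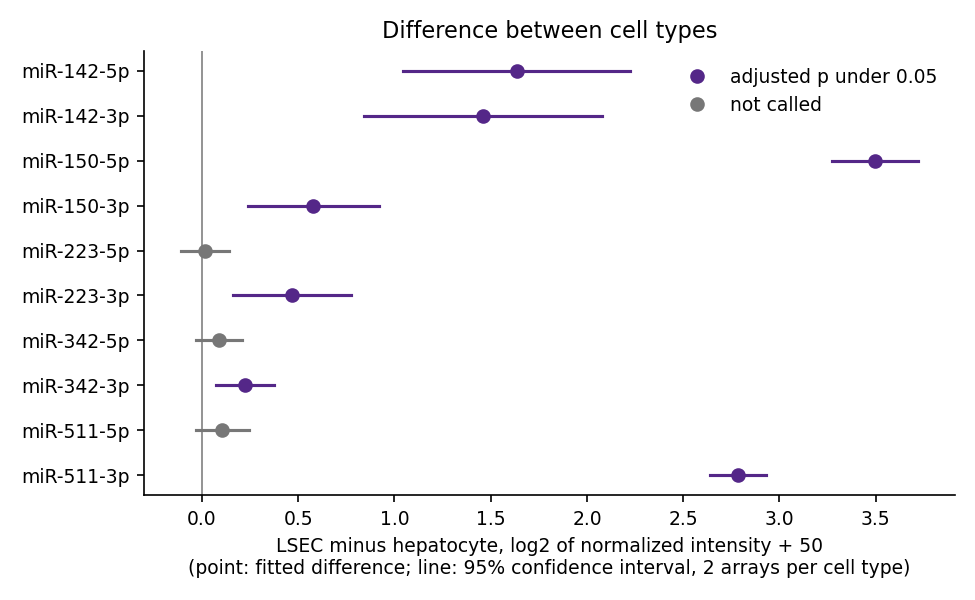
LSEC minus hepatocyte difference of each member probe on the log2 scale of normalized intensity plus 50, with its 95% confidence interval from limma over 2 arrays per cell type; coloured points passed an adjusted p under 0.05. miR-150-5p (3.50) and miR-511-3p (2.79) stand apart from the others, and the intervals of miR-223-5p, miR-342-5p and miR-511-5p include 0.

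The arms of a hairpin come from the same transcript, so the change of the 5p minus 3p difference between cell types was tested as well, with limma over 213 hairpins. The difference itself also carries the brightness of each probe, and only its change is read here. Of the 5 member hairpins, 3 changed at an adjusted p under 0.05, where 54.9% of all hairpins did, so the count by itself does not set the members apart. For rno-miR-150 the hepatocyte arrays gave a 5p minus 3p difference of -0.25 and -0.06 and the LSEC arrays one of 2.74 and 2.78, a change of 2.92 ± 0.09 towards the 5p arm (limma adjusted p = 3.54e-06). For rno-miR-511 the hepatocyte arrays gave 0.0028 and 0.04 and the LSEC arrays -2.74 and -2.57, a change of -2.68 ± 0.09 towards the 3p arm (limma adjusted p = 3.97e-06). Neither arm of rno-miR-511 was detected on both hepatocyte arrays, so the offset holds their hepatocyte values together. This call therefore shows only that the arms differed in brightness in LSECs. Whether their balance differs between the cell types was not measured. In both hairpins 1 arm had a much larger difference between the cell types than its partner, and the arrays of a cell type lay close together. The partner of rno-miR-150-5p was itself called higher in LSECs, and the partner of rno-miR-511-3p was not called.

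For rno-miR-223 the change was -0.45 ± 0.10 towards the 3p arm (limma adjusted p = 0.011), a fitted value whose 5p arm was detected on neither hepatocyte array, so its size is not measured. This call was lost with cyclic loess (adjusted p = 0.055) and without LSEC array 1 (adjusted p = 0.078), and it could not be tested with a detection limit of 5 SD. The arms of rno-miR-142 were both higher in LSECs, and their difference changed by 0.18 ± 0.11 (limma adjusted p = 0.21, interval -0.08 to 0.44). For rno-miR-342 the change was -0.14 ± 0.08 (limma adjusted p = 0.22, interval -0.34 to 0.07). The last 2 changes were both called under scaling to the median, to the 75th percentile or by the spikes. That of rno-miR-342 was also called with no normalization (-0.59, limma adjusted p = 0.014). Without hepatocyte array 2 the change of rno-miR-142 was 0.31. A dim arm sits on the offset, so the size of each change depends on the background correction.

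**Figure D3:**
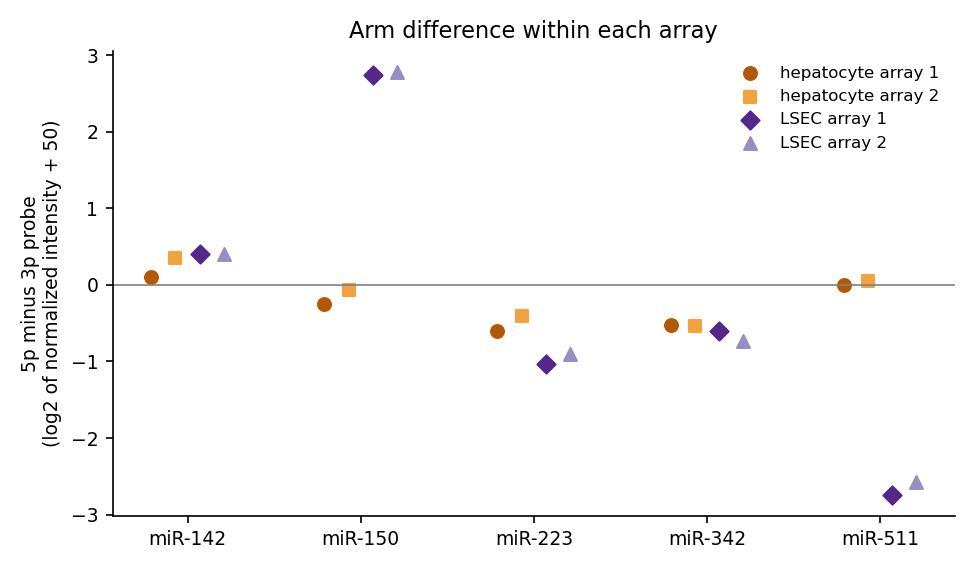
5p minus 3p difference of each member hairpin on each array (log2 of normalized intensity plus 50). The LSEC arrays of miR-150 lie at 2.74 and 2.78 and those of miR-511 at -2.74 and -2.57, away from the hepatocyte arrays near 0, while the arrays of miR-142 and miR-342 lie close together. In hepatocytes both arms of miR-511 were undetected on array 1 and near the detection limit on array 2.

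The ratio between the 2 LSEC arrays shows how even each member was between samples that carry the same label. It was taken on signal above blanks and is a description, with 1 ratio per probe and no test. Over the 242 miRNAs above 30 units on both LSEC arrays, a limit chosen after the values were seen, LSEC array 2 over LSEC array 1 had a median of 1.07 and ran from 0.744 to 1.34 between the 5th and 95th percentiles. The arms of rno-miR-142 had the highest ratios of these 242, 1.98 for rno-miR-142-5p and 1.88 for rno-miR-142-3p. The next was 1.45, for rno-miR-296-5p. Over the 630 miRNAs detected on both LSEC arrays, 5 dimmer miRNAs had a larger ratio than rno-miR-142-5p, and their brightest reading on either array was 75.9 units above blanks.

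The other members did not reach the ratios of rno-miR-142. The ratio was 1.23 for rno-miR-150-5p, 1.33 for rno-miR-150-3p and 1.31 for rno-miR-342-3p, and 0.922 for rno-miR-223-3p. The first 3 lay above the median of 1.07 but inside the 5th to 95th percentile range. Of these, rno-miR-150-3p was just under its upper end, at percentile 94.6. For rno-miR-511-3p it was 0.995, so the LSEC arrays read the same for the Mrc1-borne miRNA while they differed most for rno-miR-142. The dim arms rno-miR-511-5p, rno-miR-223-5p and rno-miR-342-5p had ratios of 1.44, 1.21 and 0.964, within the wider range of 0.633 to 1.45 over all 630. The authors' deposited values gave ratios of 1.80 and 1.70 for rno-miR-142-5p and rno-miR-142-3p, and the quantile-normalized values gave 1.5 and 1.49.

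Markers of other cells did not all move with rno-miR-142 between the LSEC arrays. Taken on each list's summed signal above blanks, the ratio was 0.864 for the hepatocyte markers, 1.03 for the endothelial ones, 0.872 for the mesenchymal ones, 1.07 for the erythroid ones and 1.15 for the dim epithelial ones. Within a list the ratios were mixed. Among mesenchymal probes they were 0.633 for rno-miR-143-3p and 0.637 for rno-miR-145-5p but 1.17 for rno-miR-214-3p and 1.10 for rno-miR-143-5p. Among erythroid probes they were 0.751 for rno-miR-451-5p but 1.28 for rno-miR-486, and among hepatocyte probes 0.717 for rno-miR-122-5p but 1.44 for rno-miR-192-5p. Replicated control spots varied by 4.41% and 8.54% (coefficient of variation) within the LSEC arrays. Whether the number of blood cells in the samples had a part in the ratio of rno-miR-142 was not tested.

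**Figure D4:**
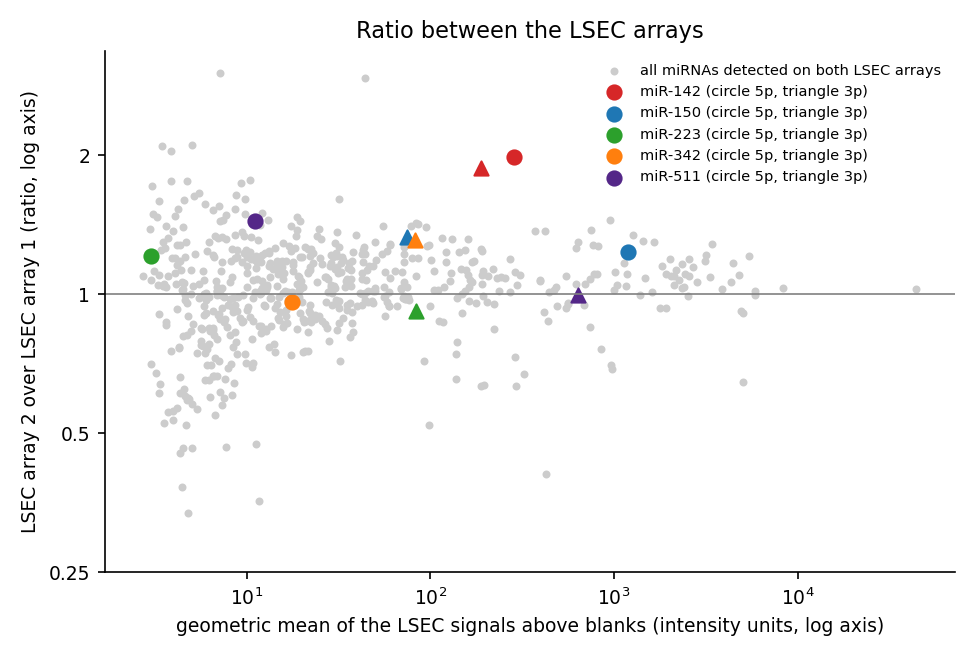
Ratio of LSEC array 2 over LSEC array 1 (log axis) against the geometric mean of both signals above blanks (intensity units, log axis) for the 630 miRNAs detected on both, with the members coloured (circle 5p, triangle 3p). Both arms of miR-142 (1.98 and 1.88) lie above all other miRNAs brighter than 30 units on both arrays, and miR-511-3p lies at 0.995.

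Other leukocyte miRNAs were set beside the members. Of 14 probes of miR-146a, miR-146b, miR-155, miR-21 and the miR-181 family, all tested, 7 were called higher in LSECs and 0 in hepatocytes, with a median difference of 0.17. The largest was that of rno-miR-146a-5p, a miRNA induced by NF-kB signalling, with 2.05 and 5.75 units above blanks in hepatocytes against 2088 and 2182 in LSECs and a difference of 4.39 ± 0.08 (limma adjusted p = 2.42e-05). The others called were rno-miR-146b-5p at 2.89, rno-miR-181a-5p at 1.49, rno-miR-21-5p at 0.64 and rno-miR-181c-5p at 0.22, with rno-miR-146a-3p and rno-miR-155-5p, which neither hepatocyte array detected, at least 1.27-fold and at least 1.18-fold higher. Many of these are also made by endothelial cells. Their summed signal above blanks was 11353 and 11744 units on the LSEC arrays, a ratio of 1.03. Most of that sum was rno-miR-21-5p, at 8203 and 8454 units. Within the list, probes above 30 units on both arrays had ratios from 1.01 (rno-miR-181a-5p) to 1.05 (rno-miR-146b-5p). The dimmer probes were mixed, from 0.559 for rno-miR-146b-3p to 1.47 for rno-miR-155-5p. The summed signal of the 10 members was 2309 and 2916 units, a ratio of 1.26.

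Erythrocyte miRNAs went the other way or did not differ beyond error. Of 5 probes of miR-451, miR-144 and miR-486, 3 were tested, 0 were called higher in LSECs, and rno-miR-451-5p was called higher in hepatocytes, with 40.3 and 41.7 units above blanks against 23.5 and 17.7 in LSECs (difference -0.79 ± 0.15, limma adjusted p = 0.024). Of 8 probes of mesenchymal miRNAs (miR-199a, miR-214, miR-143, miR-145), 6 were tested, 5 were called higher in LSECs and 1 in hepatocytes, and their summed signal was 123 and 222 units in hepatocytes and 1701 and 1484 in LSECs. Of 9 epithelial probes of the miR-200 family, 8 were tested and 3 were called higher in hepatocytes. Thus 7 of 14 other leukocyte probes and 5 of 6 tested mesenchymal probes were called on the members' side, and their part in the members' differences was not tested.

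The miRNAs whose pattern over the 4 arrays was most like each hairpin's brighter LSEC arm were found by the distance between centred normalized log2 values. For rno-miR-511-3p these were rno-miR-199a-3p (distance 0.08), rno-miR-146b-5p (0.15) and rno-miR-23a-3p (0.31). For rno-miR-150-5p they were rno-miR-10a-5p (0.47), rno-miR-23a-3p (0.50) and rno-miR-322-5p (0.59). For rno-miR-142-5p the nearest were rno-miR-199a-5p (0.41), rno-miR-494-3p (0.43) and rno-miR-497-5p (0.44), all with more even LSEC arrays, at ratios from 1.01 to 1.22. For rno-miR-223-3p they were rno-miR-678, rno-miR-139-3p and rno-miR-106b-5p (0.13 to 0.17), and for rno-miR-342-3p rno-miR-1843b-3p, rno-miR-483-3p and rno-miR-187-5p (0.04 to 0.06). Over 4 arrays in 2 cell types, such likeness rests mostly on the size of the difference between the cell types.

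**Figure D5:**
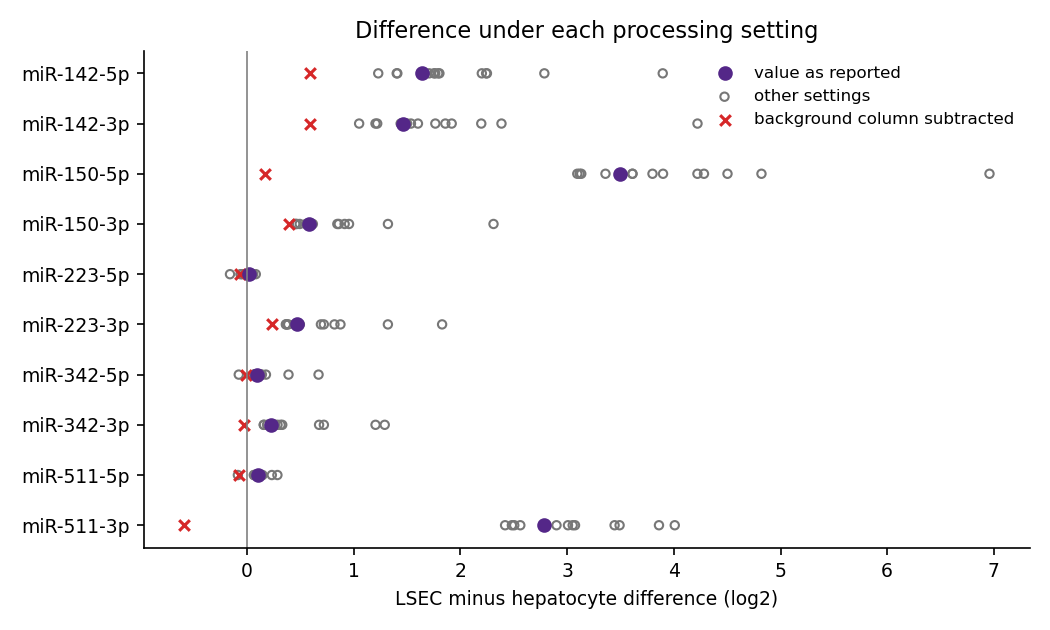
LSEC minus hepatocyte log2 difference of each member under the reported setting (filled), the other settings (open) and subtraction of the deposited background column (cross). The cross is the only setting that puts miR-511-3p below 0 (-0.59), and miR-150-5p and both arms of miR-142 stay above 0 under every setting shown.

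The deposited background column turned rno-miR-511-3p from 2.79 to -0.59 (limma adjusted p = 0.027) and took rno-miR-150-5p from 3.50 to 0.17 (limma adjusted p = 0.93). Across miRNA probes this column correlated with the log2 brightness of the same spot at r = 0.964 to 0.982, so it is not independent of the signal it is taken from. Under the other settings in which they were tested, rno-miR-150-5p and rno-miR-511-3p kept their calls, including the 4 fits that left out an array, where rno-miR-150-5p ran from 3.13 to 3.90 and rno-miR-511-3p from 2.50 to 3.07.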

How the data were processed

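Total RNA of each sample was labelled with Cy5 and hybridised to its own Toray 3D-Gene array, per the labels' protocols. The authors deposited scanner tables with each spot's median intensity, which per the file headers combines scans at 3 gains and still holds the background. A second deposited table gives processed intensity with no word on its scale. Set against the scanner tables, each value equalled the spot median minus the blank mean, times a constant per array that put the median at 25. Only the scanner tables were used for the reported values.

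Spot medians of the 3200 spots were corrected by normexp (offset 50), the 761 miRNA probes were quantile-normalized, and log2 values were computed from the deposited intensities (R 4.3.3, limma 3.58.1). Blank means and SDs left out 5% of the blank spots at each end. Differences were fitted with limma (lmFit, eBayes) over 652 miRNAs, and 5p minus 3p changes over 213 hairpins. An exact permutation of 2 against 2 arrays cannot give a p below 0.333, so none was used. Where a probe was detected on neither array of a cell type, the fold has only a bound. The miRNAs named were all members, their seed mates, the called probes of the leukocyte, erythroid and marker lists by value or count, and the 3 most similar probes per hairpin. rno-miR-296-5p was added after its value was seen. The members and lists were chosen with earlier results of these data known. The labels do not say that a replicate number marks a shared animal or day, so the block is an alternative only. Deviations of same-numbered samples correlated with r = 0.03 across miRNAs. Each cell type gives only 1 such deviation per miRNA, so this r cannot show whether the samples were paired. Alternatives changed the background, the scaling, the detection filter, the limma options and the arrays used. The fit was run on simulated data with independent normal noise of the fitted size. That run checks the fit under its own assumptions only, and not the background correction, the normalization or the p-values from so few arrays. With 2 arrays per cell type, the number of arrays limits precision throughout.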

Additional observations from a re-analysis of the deposited data

How the results depend on the processing

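With the deposited background column subtracted, 0 members were called higher in LSECs, 1 was called higher in hepatocytes (rno-miR-511-3p, -0.59) and 0 hairpins changed their arms. The differences that turned were then -0.010 for rno-miR-342-5p, -0.0333 for rno-miR-342-3p, -0.0636 for rno-miR-223-5p and -0.0744 for rno-miR-511-5p, and the arm changes that turned were 0.0233 for rno-miR-342, -0.23 for rno-miR-150, 0.52 for rno-miR-511 and -0.00057 for rno-miR-142. Scaling to the 75th percentile called 1 member higher in hepatocytes (rno-miR-223-5p, -0.16) and turned rno-miR-342-5p to -0.0787 and rno-miR-511-5p to -0.0869. rno-miR-223-5p was -0.0624 with scaling to the median and -0.0459 with no normalization. Scaling to the median, to the 75th percentile or by the spikes called 5 hairpins, and the cause was not tested. The authors' values, and a filter for detection on all 4 arrays, called 1 of the 3 hairpins that could then be tested; the arm change of rno-miR-142 was -0.33 with the authors' values (cause not tested). With the replicate block 5 members were called in place of 7, losing rno-miR-342-3p (0.22, adjusted p = 0.094) and rno-miR-150-3p (0.58, adjusted p = 0.056). Cyclic loess also called 5, but lost rno-miR-342-3p (0.16, adjusted p = 0.12) and rno-miR-223-3p (0.37, adjusted p = 0.066). Leaving out 1 array at a time left 2 to 4 members called, and 2 without hepatocyte array 2 (rno-miR-150-5p and rno-miR-511-3p). The fitted difference of rno-miR-223-5p then ran from -0.0204 to 0.0562; all its values here come from hepatocyte arrays below the detection limit and give no fold. A limit of 5 SD over the blanks left 3 members detected on hepatocyte array 2. A block for slide or scan was not run, since the files give neither. Values below about 10 units above the blanks are limited by the spread of the blanks, and the lone array left in a cell type was assumed to vary like the others.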

Other observations

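The hepatocyte arrays also differed from each other. The ratio of hepatocyte array 2 over array 1, on signal above blanks, had a median of 1.67 over 504 miRNAs detected on both. Among the members it was 1.85 for rno-miR-142-5p, 0.794 for rno-miR-142-3p, 1.10 for rno-miR-150-5p, 0.821 for rno-miR-150-3p, 1.004 for rno-miR-223-3p, 1.47 for rno-miR-342-5p and 1.58 for rno-miR-342-3p. Against that median, 6 of these 7 ratios were lower. The arms of rno-miR-142 moved in opposite directions between the hepatocyte arrays, where both were dim, and together between the LSEC arrays.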
